A study of Mus musculus with 2 samples.

Results

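Tnf, Lta and Ltb are 3 neighbouring genes of mouse chromosome 17 (mm10), and they are described here with all KAT8 peaks from 50 kb before to 50 kb after them, a span of 111 kb (35144507 to 35255578). They are 3 of 21887 protein-coding genes in the annotation, and the span held 6 of the 44772 peaks of the R848 list and 7 of the 52001 peaks of the untreated list. The peaks come from CUT&Tag, a method that tethers a transposase to a protein through an antibody, here against KAT8, and sequences the DNA cut nearby. Macrophages were derived from mouse bone marrow cells in medium with 20 ng/ml M-CSF. They either received R848, a synthetic ligand of TLR7, at 100 ng/ml for 2 h (1 library) or were left untreated (1 library). Both groups were wild type, and strain, age and sex are not given in the labels used here. With 1 library per group, no difference below has a replicate check or a p-value.

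KAT8, also called MOF, is a lysine acetyltransferase that acts on histones as part of the MSL and NSL complexes. Tnf encodes tumour necrosis factor, an inflammatory cytokine that macrophages transcribe quickly after Toll-like receptor stimulation and shed from their surface. Lta and Ltb encode the lymphotoxins, made mainly by lymphocytes: lymphotoxin alpha is secreted and shares its receptors with TNF, or joins lymphotoxin beta at the cell surface to engage the receptor encoded by Ltbr. The genes lie within the class III region of the major histocompatibility complex. Tnf (35199367 to 35202007) and Lta (35203165 to 35205578) are read from the minus strand and Ltb (35194507 to 35196305) from the plus strand. The start of Lta lies 3344 bp from that of Tnf, and the start of Ltb 7500 bp from it on the other side.

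Tnf had a KAT8 peak at its start in the R848 list, and peaks inside the gene but not over its start in the untreated list. Neither Lta nor Ltb had a peak in its body or over its start in either list. The promoter windows of the 3 genes (RefSeq, GRCm38.p6, the assembly of mm10, from 250 bases before to 50 after the start) are shown first, because the R848 peak lies over the first of them and the other two are the peak-free promoters of the same family. Capitals mark matches to 7 patterns searched on both strands: NF-kB, spelled GGG, any 2 letters and then TTTCC (longer) or TTCC (shorter); AP-1, TGANTCA; a CRE-like site, TGACGNNA; an Ets site, AGGAAG; a GC box, GGGCGG; and a TATA box, TATAAA. No match in these windows shared a base with another. Each window is written 5′ to 3′ on the strand of its gene.
Tnf, chr17:35201958-35202257, minus strand: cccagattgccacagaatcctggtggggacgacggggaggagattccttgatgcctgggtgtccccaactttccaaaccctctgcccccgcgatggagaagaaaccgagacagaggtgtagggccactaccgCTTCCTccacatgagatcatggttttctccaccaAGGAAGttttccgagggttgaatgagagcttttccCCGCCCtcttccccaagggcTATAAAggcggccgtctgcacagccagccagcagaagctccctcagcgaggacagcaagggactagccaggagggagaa
Lta, chr17:35205302-35205601, minus strand: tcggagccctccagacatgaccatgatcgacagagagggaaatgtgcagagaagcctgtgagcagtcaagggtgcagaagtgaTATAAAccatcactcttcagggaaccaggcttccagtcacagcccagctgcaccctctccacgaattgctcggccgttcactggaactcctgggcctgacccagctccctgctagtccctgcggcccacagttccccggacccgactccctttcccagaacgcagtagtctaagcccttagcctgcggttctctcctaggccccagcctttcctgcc
Ltb, chr17:35194257-35194556, plus strand: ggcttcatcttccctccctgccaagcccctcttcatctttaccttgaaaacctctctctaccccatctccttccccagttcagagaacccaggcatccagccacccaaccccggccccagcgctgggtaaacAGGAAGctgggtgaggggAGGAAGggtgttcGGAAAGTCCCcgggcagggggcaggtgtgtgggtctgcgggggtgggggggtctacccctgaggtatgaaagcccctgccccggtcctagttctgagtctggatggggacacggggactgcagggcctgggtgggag

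The Tnf window held 2 Ets matches, beginning 118 and 84 bases before the start, a GC box beginning 49 bases before it and a TATA box beginning 29 bases before it. All 4 matches lay inside the R848 peak and none inside an untreated peak. The Lta window held 1 match, a TATA box beginning 167 bases before the start used in the table. The Ltb window held 2 Ets matches, at 118 and 100 bases, and the longer NF-kB pattern at 87 bases. Of 21263 promoter windows of protein-coding genes, 34.4% held the Ets pattern, 46.2% the GC box, 12.6% the TATA box and 1.60% the longer NF-kB pattern. A match describes letters in a window and is not a measured binding site.

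**Figure D1:**
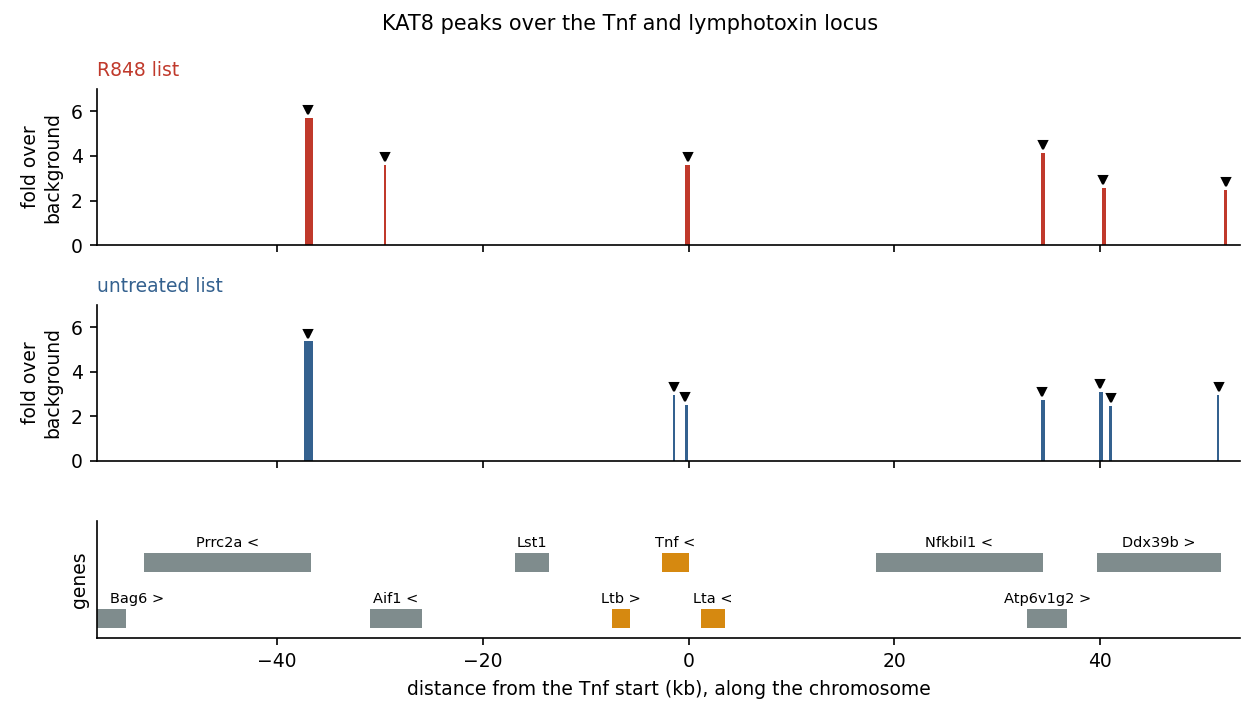
Peaks of the R848 list (upper row) and of the untreated list (middle row) across the 111 kb span, drawn as bars at their position in kb from the Tnf start, with the authors' fold over background as height and a triangle at the summit. Protein-coding genes are below, Tnf, Lta and Ltb in orange, with the arrow giving the strand where the table gives one. The strongest peak of the span lies at Prrc2a in both lists, peaks of both lists lie at Tnf, and none lies over Lta or Ltb.

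The overlapping peaks at Tnf differed in extent and summit between the lists. In the R848 list the peak ran from 35201618 to 35202168 (551 bp), from 161 bases before the start to 389 bases into the gene, with its summit at 35201976, 31 bases into the gene. In the untreated list the overlapping peak ran from 35201667 to 35201943 (277 bp), with its summit at 35201694, 313 bases into the gene. The untreated peak lay wholly within the R848 peak and ended 14 bases short of the promoter window. The R848 peak covered 211 of the 300 bases of that window. A second untreated peak, from 35200498 to 35200697 (200 bp), had its summit 1464 bases into Tnf, and no R848 peak overlapped it. The annotation used gives no exons, so these positions are stated only as inside the gene.

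The authors' values for these peaks rank each within its own list. The R848 Tnf peak had a score of 68, a fold over background of 3.61, and −log10 values of 6.87 for p and 3.34 for q. It was stronger by −log10 p than 88.0% of R848 peaks and wider than 89.2%. The overlapping untreated peak had a score of 31, a fold of 2.52, and −log10 values of 3.12 for p and 0.462 for q, stronger by −log10 p than 14.6% of untreated peaks. The untreated peak further inside the gene had a score of 42, a fold of 2.98, and −log10 values of 4.28 for p and 1.26 for q. A q of 0.05 or less was thus reached at Tnf in the R848 list and by neither peak of the untreated list. Over all peaks, 41.1% of the R848 list and 36.3% of the untreated list reached it.

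**Figure D2:**
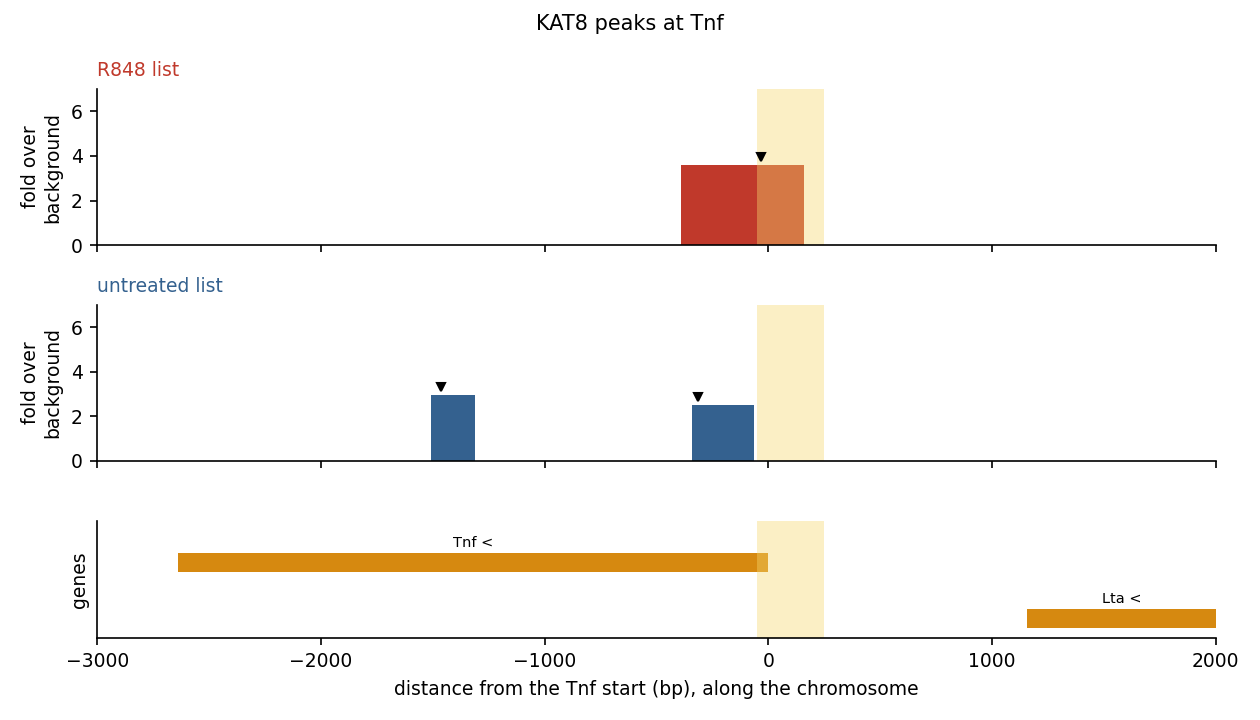
Peaks of the R848 list (upper row) and the untreated list (middle row) around the Tnf start, by position in bp along the chromosome (negative values lie inside Tnf), with the authors' fold over background as height, a triangle at each summit and the promoter window in yellow. The R848 peak reaches 161 bases before the start, and the nearer untreated peak stops 64 bases inside the gene.

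The number of fragments behind each peak can be solved from its fold and p-value. The summit pileup is the number of fragments overlapping a peak's own summit. For the overlapping peaks at Tnf it was 18 in the R848 list (95% exact Poisson interval 10.7 to 28.4) and 10 in the untreated list (4.8 to 18.4). The intervals overlap, and they cover counting error only. These 2 summits lie 282 bp apart, so the pileups are not from the same position. The untreated pileup at the start itself is not known. The other untreated Tnf peak had a pileup of 12. The ratio of the overlapping peaks, R848 over untreated, was 1.80 (95% interval from the exact binomial share of the 2 counts, 0.788 to 4.36). The lowest background among the peaks of a list was 2.62 fragments for R848 and 3.37 for untreated. With the untreated pileup scaled by these lowest values, the ratio was 2.32 (1.01 to 5.61). At the overlapping Tnf peaks themselves the background was higher in R848, 4.26 fragments against 3.37 in untreated. The scaling does not take that local difference into account. A ratio of 1.5 or more was found in 1.86% of the 16517 overlapping pairs of peaks before scaling and in 11.8% after it. The median ratio over all pairs was 0.846 before and 1.09 after scaling. Of all pairs, 77 had a ratio at least as high as that at Tnf, counting Tnf itself.

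Pairs with a low untreated pileup have more room for a high ratio, so the Tnf pair was also set beside its equals. Among 1101 pairs with an untreated pileup of 10, the median R848 pileup was 10, and 18 pairs, with that at Tnf, had 18 or more. In shape, its summits were 282 bp apart, farther than in 84.1% of pairs (median 102 bp), and its R848 peak was 1.99 times as wide as its untreated peak, a ratio above that of 91.3% of pairs. The background that the peak caller set for the R848 Tnf peak was 4.26 fragments, 1.63 times the lowest of that library and above that of 95.6% of R848 peaks. Both untreated Tnf peaks had the lowest background of their library, as had 69.4% of untreated peaks. These ranks describe 2 libraries, and replicate spread was not available to set them against.

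**Figure D3:**
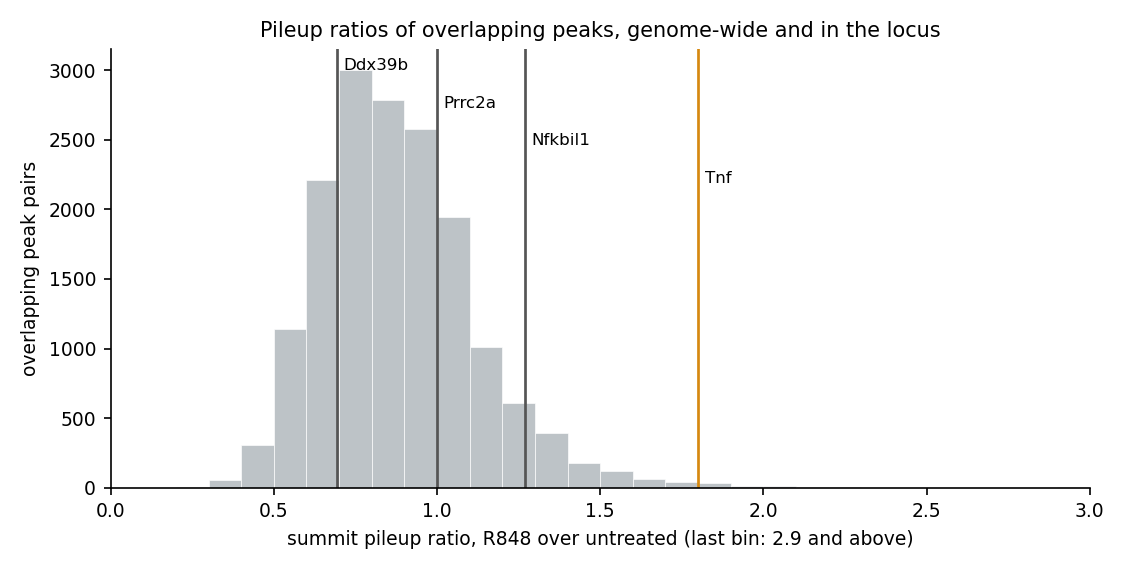
Number of overlapping peak pairs by the ratio of summit pileups, R848 over untreated and not scaled, in bins of 0.1, with vertical lines at the 4 pairs of the locus. Tnf lies at 1.80 in the right tail, Nfkbil1 at 1.27, Prrc2a at 1.0 and Ddx39b at 0.692.

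The lymphotoxin genes had no peak of their own. The peak nearest to Ltb was 5313 bp away in the R848 list and 4193 bp away in the untreated list, and in both it was a Tnf peak. The peak nearest to Lta was also a Tnf peak, 997 bp from the Lta end in the R848 list and 1222 bp in the untreated list. Within 1000 bp of either end of a gene, 2 of the 3 genes had an R848 peak and 1 had an untreated peak, against 24.4% (R848) and 28.8% (untreated) of all protein-coding genes. The second R848 gene is Lta, whose window took in 4 bases of the Tnf peak, so this count holds 1 peak site. Counted in that way Lta is among the 7.11% of genes with an R848 peak alone. In the promoter window, 1 of the 3 genes had an R848 peak and 0 an untreated one, against 18.1% (R848) and 21.6% (untreated) of promoter windows. Tnf is thus among the 4.5% of promoter windows with an R848 peak alone, while 8% had an untreated peak alone. Lta and Ltb are among the 73.9% with neither.

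An absent peak does not show absent signal. The lowest pileup in the lists was 7 in the R848 library and 8 in the untreated library, so weaker signal at Lta or Ltb was not detectable from these lists. Since lymphotoxins mark lymphocytes, markers of those cells were counted too. Of 10 lymphoid markers, 2 had a gene-end peak in the R848 list (Cd3d, fold 2.76, and Zap70, fold 3.39) and 0 in the untreated list. Of 10 macrophage markers, 4 had one in the R848 list and 3 in the untreated list, among them Cd68 and Cebpb in both. Of all genes, 24.4% had an R848 peak and 28.8% an untreated peak, and with 10 genes a list these counts are no result about the markers. A KAT8 peak is not an RNA level, so these counts do not check the labelled cell type. The part of other cells in the Tnf peak was not tested.

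Beyond Tnf, sites with a peak in both lists lay at Prrc2a, at Nfkbil1 and Atp6v1g2, and at Ddx39b. The span holds 10 protein-coding genes, 4 miRNA genes, 3 snoRNA genes and 1 pseudogene. From Tnf to Nfkbil1 no peak lay over 34113 bp in the R848 list and 34327 bp in the untreated list, a stretch that contains Lta with the miRNA gene Mir6974 inside it. From Prrc2a to Tnf no untreated peak lay over 35048 bp. That stretch contains Aif1, the pseudogene Ncr3-ps, Lst1, a leukocyte transmembrane protein gene, and Ltb with the miRNA gene Mir6973a inside it. In the R848 list the Aif1 peak divides it, leaving 29015 bp without a peak. Lst1 had no peak in its body or within 1000 bp of its ends in either list.

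Prrc2a, which encodes an RNA-binding protein, had the strongest peak of the span in both lists. In the R848 list it ran from 35164666 to 35165473 (fold 5.71, −log10 q 8.99), and in the untreated list from 35164577 to 35165449 (fold 5.36, −log10 q 8.35). The 2 peaks shared 784 bp, and their summits were 40 bp apart. Both had a pileup of 23 (14.6 to 34.5), above the medians of 10 in the R848 list and 12 in the untreated list. By −log10 p they were stronger than 97.4% of R848 peaks and 96.8% of untreated peaks.

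Nfkbil1, which encodes a nuclear protein related to the IκB inhibitors, and Atp6v1g2, a subunit gene of the vacuolar proton pump, are read away from each other from starts 115 bp apart. A single peak lay over both starts in each list, from 35236282 to 35236679 in the R848 list and from 35236271 to 35236671 in the untreated list. Its pileup was 14 (7.65 to 23.5) in the R848 list and 11 (5.49 to 19.7) in the untreated list, a ratio of 1.27 (0.537 to 3.10). Scaled as for Tnf, this ratio was 1.64 (0.69 to 3.99), and 94.0% of all overlapping pairs had a lower one. The scaled ratio was 1.29 at Prrc2a and 0.891 at Ddx39b. Its fold was 4.12 in the R848 list (−log10 q 3.34) and 2.75 in the untreated list (−log10 q 0.831). The R848 summit lay 29 bases inside Nfkbil1 from its start and the untreated summit 134 bases. The R848 summit was thus the nearer to a start at Tnf and here, and the untreated summit was the nearer at Prrc2a (165 bp from the start in R848 and 125 bp in untreated) and at Ddx39b (566 bp in R848 and 267 bp in untreated).

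Ddx39b, which encodes an RNA helicase of splicing and mRNA export, had peaks past its start in both lists. In the R848 list 1 peak had its summit 566 bases into the gene (35242217 to 35242615, fold 2.56, pileup 9, 4.12 to 17.1). In the untreated list 1 had its summit 267 bases in (35241875 to 35242256, fold 3.11, pileup 13, 6.92 to 22.2) and another 1286 bases in (35242915 to 35243189, fold 2.48, pileup 10). The R848 peak and the first of these shared only 40 bp. Neither reached the promoter window, which ended 421 bp before the R848 peak and 79 bp before the nearer untreated peak. At the other end of the gene, an R848 peak began 381 bp past it (35254088 to 35254380, fold 2.49), and an untreated peak ended 114 bp before it (35253390 to 35253593, fold 2.98), with no overlap.

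Aif1, which encodes the calcium-binding protein IBA1 of macrophages and microglia, had an R848 peak with no untreated peak near it (35172402 to 35172602, fold 3.59, −log10 q 2.07, pileup 12, 6.2 to 21). It lay inside the gene, 3564 bases from the start, and not within 1000 bp of either end. Bag6, a chaperone gene that reaches into the span with its last part, had peaks of both lists over its start, which lies outside the span. Of the 7 protein-coding neighbours, 4 had a gene-end peak in both lists (Bag6, Prrc2a, Nfkbil1 and Ddx39b) and none in 1 list only. Of all protein-coding genes, 17.3% had one in both lists, 7.11% in R848 alone and 11.5% in untreated alone. Counting a gene where any of its promoter windows had a peak, 4 had one in both lists (Bag6, Prrc2a, Nfkbil1 and Atp6v1g2). Nfkbil1 and Atp6v1g2 share a single peak, and each has another window without a peak in either list. Lst1 has no promoter window. Of all promoter windows, each counted singly, 13.6% had a peak in both lists, so this share is not of genes.

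**Figure D4:**
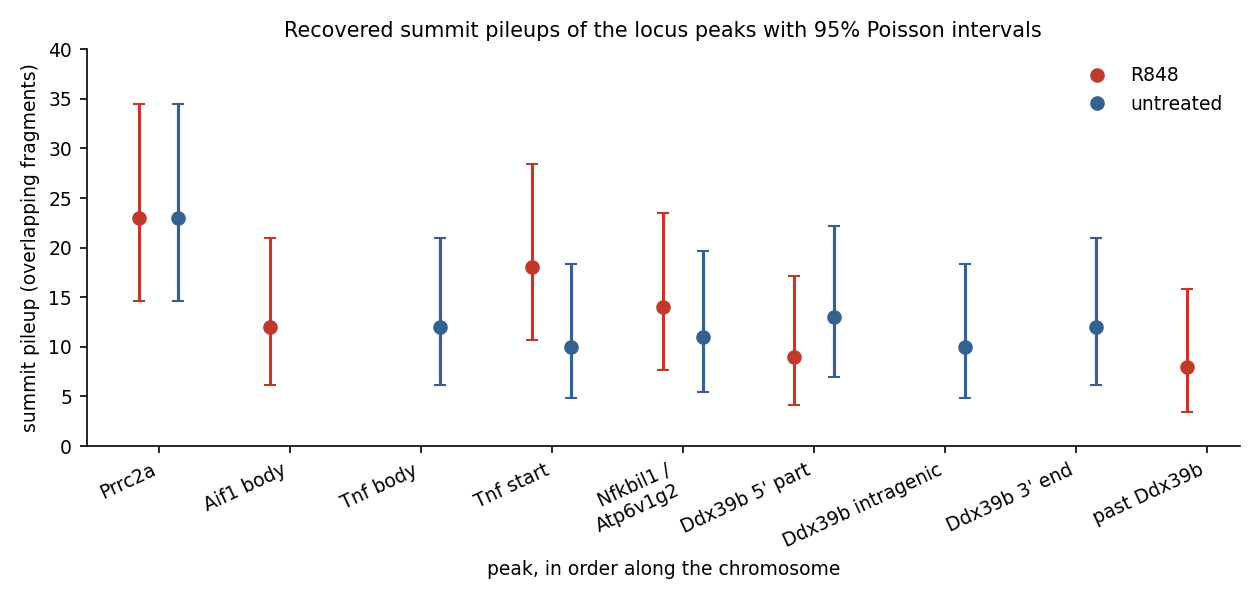
Summit pileup, in overlapping fragments, of each peak of the span in its order along the chromosome, R848 left of untreated at each site, with 95% exact Poisson intervals as bars. Of the sites with a peak in both lists, Prrc2a had 23 in each, Tnf 18 in R848 and 10 in untreated, Nfkbil1 14 in R848 and 11 in untreated, and Ddx39b 9 in R848 and 13 in untreated, and at each the intervals overlap.

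In all, 4 of 6 R848 peaks of the span (66.7%, 95% exact binomial interval 22.3 to 95.7) overlapped an untreated peak, against 35.8% of the whole list. Likewise 4 of 7 untreated peaks (57.1%, 18.4 to 90.1) overlapped an R848 peak, against 31% of that list. Both intervals include the share of the whole list. A q of 0.05 or less was reached by 4 R848 peaks (Prrc2a, Aif1, Tnf and Nfkbil1) and by 2 untreated peaks (Prrc2a and Ddx39b). With both lists held to that q, Prrc2a was the only shared site.

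The span is rich in genes. It held 6 R848 peaks and 7 untreated peaks, and non-overlapping windows of the same length over the genome (24499) had medians of 1 for R848 and 2 for untreated. Fewer peaks than in the span were found in 95.6% of windows for R848 and 96.9% for untreated. The median window held 1 protein-coding gene against the 10 of the span. Among the 208 windows with 8 to 12 such genes the median was 4 in both lists, and fewer peaks than in the span were found in 74.0% of them for R848 and 79.3% for untreated.

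The promoters of the span also differed in sequence. Tnf had 11 CpG dinucleotides and 58.0% G and C in its window, Lta 10 and 59.0%, and Ltb 7 and 63.3%, and the median over all windows was 13 and 56.3%. Among all promoter windows with 10 to 19 CpG, 17.4% had an R848 peak (16.2 to 18.5) and 22.2% an untreated peak (20.9 to 23.4). Among those with 5 to 9, as at Ltb, the shares were 3.95% for R848 (3.30 to 4.69) and 4.94% for untreated (4.21 to 5.75), and with 20 or more they were 37.6% for R848 and 43.8% for untreated. Prrc2a, with 25, and Ddx39b, with 31, belong to the class with the most CpG, and Aif1, with 1, to that with the least. Of these, Prrc2a had a peak in its window in both lists, and Ddx39b and Aif1 had none in either. The windows with a peak at Nfkbil1, with 16, and Atp6v1g2, with 12, fall in the class of Tnf and Lta. The other windows of Nfkbil1, with 22, and Atp6v1g2, with 13, had no peak. The 2 promoters with peaks in both lists that stand on either side of the family, Prrc2a and Nfkbil1, are shown for comparison with the same capitals.
Prrc2a, chr17:35164828-35165127, minus strand: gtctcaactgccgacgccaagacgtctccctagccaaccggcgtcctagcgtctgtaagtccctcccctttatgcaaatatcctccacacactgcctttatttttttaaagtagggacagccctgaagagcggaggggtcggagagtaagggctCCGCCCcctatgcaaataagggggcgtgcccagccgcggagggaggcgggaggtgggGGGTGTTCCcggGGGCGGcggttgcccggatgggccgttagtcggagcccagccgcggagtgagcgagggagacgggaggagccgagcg
Nfkbil1, chr17:35236432-35236731, minus strand: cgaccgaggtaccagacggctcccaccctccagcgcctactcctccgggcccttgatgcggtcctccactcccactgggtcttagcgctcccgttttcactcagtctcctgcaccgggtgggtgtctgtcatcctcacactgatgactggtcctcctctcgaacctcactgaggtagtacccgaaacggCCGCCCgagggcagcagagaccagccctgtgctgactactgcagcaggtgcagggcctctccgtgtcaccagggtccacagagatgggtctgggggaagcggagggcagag

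Prrc2a held 2 GC boxes and the shorter NF-kB pattern, which 6.30% of windows had, and Nfkbil1 held 1 GC box. Neither held the TATAAA pattern, which began 29 bases before the start at Tnf and 167 bases before it at Lta. Of all windows with that TATA pattern, 6.49% had an R848 peak and 8.47% an untreated peak, and of those without it 19.7% had an R848 peak and 23.5% an untreated one. Tnf was among the 6.49%. Over all windows with an R848 peak, the summit nearest to the start lay a median of 66 bases before it, and 37.0% lay inside the gene, as at Tnf. Over those with an untreated peak the median was 63 bases before the start.

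**Figure D5:**
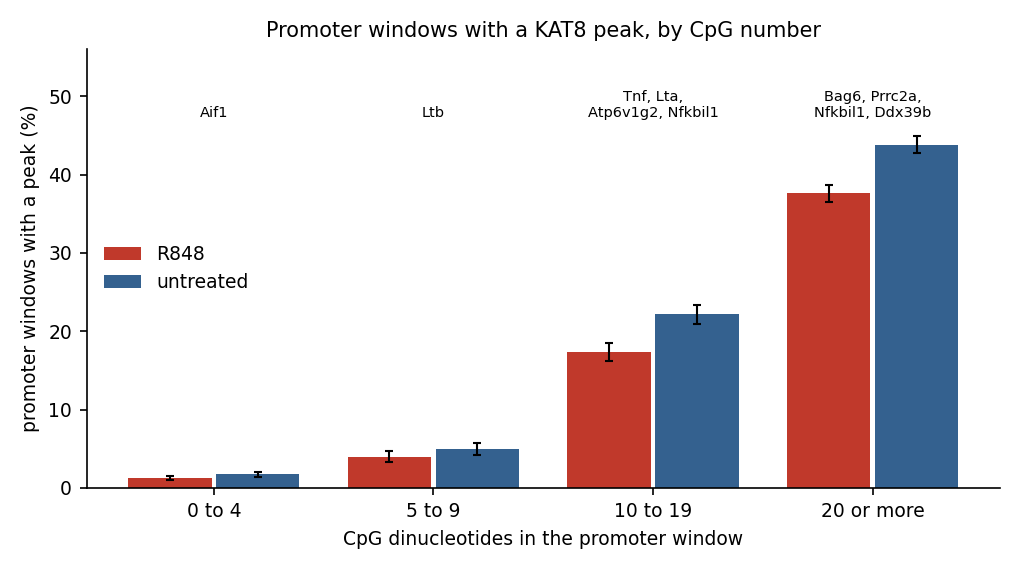
Share of promoter windows with a KAT8 peak (%), by the number of CpG dinucleotides in the 300 bases, R848 left of untreated, with 95% exact binomial intervals, and the genes of the locus named above their class. The share was 1.23% for R848 and 1.71% for untreated with 0 to 4 CpG, and 37.6% for R848 and 43.8% for untreated with 20 or more, and Tnf and Lta fall in the class of 10 to 19.

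The family and the genes that control TNF were followed outside the locus by peaks within 1000 bp of a gene end. Of 15 other ligands of the TNF superfamily, 2 had an R848 peak (13.3%) and 3 an untreated peak (20.0%), beside 24.4% (R848) and 28.8% (untreated) of all genes. Tnfsf14, a ligand of the lymphotoxin beta receptor (fold 3.41, pileup 14, 7.65 to 23.5), and Tnfsf9, the 4-1BB ligand gene (3.32, pileup 11, 5.49 to 19.7), had an R848 peak alone. Tnfsf11, the osteoclast factor RANKL (3.43, pileup 14), and the neighbouring genes Tnfsf12 and Tnfsf13, which encode TWEAK and the B cell factor APRIL (3.20 and pileup 13 each, from separate peaks), had an untreated peak alone. None of these peaks overlapped a peak of the other list, as was so for most peaks of both lists, of which 35.8% (R848) and 31% (untreated) did overlap. Among all protein-coding genes, 7.11% had an R848 peak alone and 11.5% an untreated peak alone. With 15 genes, 2 with R848 alone and 3 with untreated alone are no result about the ligands.

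Of 25 receptors of the superfamily, 2 had an R848 peak (8%) and 5 an untreated peak (20.0%), beside 24.4% (R848) and 28.8% (untreated) of all genes. Tnfrsf1a, the main signalling receptor of TNF, had none in either list. Its second receptor gene Tnfrsf1b (fold 3.43, pileup 14) and the lymphotoxin receptor gene Ltbr (3.20, pileup 13) had an untreated peak alone, as did Tnfrsf25 (3.21) and Tnfrsf12a, the TWEAK receptor gene (3.20). Tnfrsf8, which encodes CD30, had an R848 peak alone (2.94). Relt was the receptor with overlapping peaks in both lists (3.55 in R848 and 3.66 in untreated). In total, 4 of the 25 receptors had an untreated peak alone and 1 an R848 peak alone. Among all protein-coding genes the shares were 11.5% for untreated alone and 7.11% for R848 alone. With 25 genes these counts are no result about the receptors.

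Of 18 genes of TNF shedding and mRNA control, 10 had an R848 peak (55.6%) and 13 an untreated peak (72.2%), beside 24.4% (R848) and 28.8% (untreated) of all genes. All 10 with an R848 peak also had an untreated one that overlapped it. Of the 5349 protein-coding genes with an R848 peak, 3792 also had an untreated peak, overlapping or not. The share to set beside 10 of 10 is thus 3792 of 5349, and the 17.3% given above is of all protein-coding genes. Zfp36, which encodes tristetraprolin, a protein that destabilises Tnf mRNA, had a pileup of 19 (11.4 to 29.7) in the R848 list and 25 (16.2 to 36.9) in the untreated list. Its relative Zfp36l2 had 11 in R848 and 25 in untreated, and Litaf, named for a proposed role in Tnf transcription, had 12 in R848 and 22 in untreated. The untreated Zfp36l2 peak overlapped 2 R848 peaks, and the pileup of the other is not given here. The kinase genes Map3k8, upstream of ERK in TNF induction (10 in R848 and 17 in untreated), and Mapkapk2, a p38 target that promotes Tnf translation (13 in R848 and 10 in untreated), also had peaks in both lists. So had Elavl1 and Tia1, which encode RNA-binding proteins (13 in R848 and 15 in untreated each). Adam17, the protease that releases TNF from the cell surface (fold 2.98, −log10 q 1.26), the RNA-binding Rc3h1 (3.43) and the intramembrane protease gene Sppl2b (2.33) had an untreated peak alone. These 3 of the 18 genes stand beside 11.5% of all protein-coding genes with an untreated peak alone. Of the 10 genes with peaks in both lists, 1 (Mapkapk2) had the higher pileup in R848 before scaling and 4 after it, where 22% of all overlapping pairs did before and 63.7% after scaling.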

How the data were processed

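KAT8 CUT&Tag libraries of mouse bone marrow-derived macrophages were grouped by the treatment label, 1 with R848 and 1 untreated. The authors deposited 1 narrowPeak list per library. Deposited for each peak are a score (10 times −log10 p, to within 1), the ratio of its height to background (fold), p-value and q-value as −log10, and the summit. Per the submitters' processing notes, the build was mm10 and the tools included MACS2 2.2.7.1, Bowtie 0.12.8 and DiffBind; their settings and any control library are not stated. The lowest −log10 p was 2.01 in both lists, so weak peaks are included.

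Pileup and background were solved together from p, read as an upper Poisson tail, and fold, read as (pileup + 1) / (background + 1), with Python 3.11.15 and scipy 1.17.1. Pileups came out whole within 0.05 for 99.996% of R848 and 99.998% of untreated peaks. Read totals were not used here. Overlap means 1 bp or more. Gene ends and promoter windows came from RefSeq tables of GRCm38.p6, where every listed gene was found by symbol. A gene-end peak touches the 1000 bp on either side of a gene's ends. Alternatives changed the q-value, window, flank, overlap rule, list length and scaling. The members, lists and alternatives were chosen with earlier results of these data known. Named are Tnf, Lta, Ltb, every protein-coding gene of the span, up to 6 list members per class by fold, and Tnfrsf1a, Tnfrsf1b, Ltbr, Adam17 and Zfp36. The solver and the interval search were tested on simulated data.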

Additional observations from a re-analysis of the deposited data

How the results depend on the processing

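No paired analysis was possible because each group has 1 library. Of 80 alternative values for 20 results, 43 stayed close to the main value and 37 did not, where close means within 1.5 times for a count, inside its printed interval for a pileup ratio and inside its 95% exact binomial interval for a share of windows; the cause was not tested beyond the settings themselves, which change how many peaks or bases are counted. Scaling the untreated pileups left each of the 4 ratios inside its interval.

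The 6 R848 and 7 untreated peaks of the span became 1 and 1 at a −log10 q of 5, 1 and 2 with flanks of 20 kb, and 11 R848 peaks with 100 kb; a q of 0.05 left 2 untreated peaks. The 4 shared peaks of each list became 2 in both by summits within 250 bp and 1 in both at a q of 0.05. Of Tnf, Lta and Ltb, those with an R848 peak became 1 with windows of 500 bp, with 1000 bp around the start only and with promoter windows. With an untreated peak there were 2 in windows of 3000 bp, 0 in promoter windows and 0 at a q of 0.05.

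Ligands with a peak in R848 numbered 4 in windows of 3000 bp, 7 over whole genes and 0 at a −log10 q of 5, which also left 0 in the untreated list. Receptors with a peak in R848 numbered 1 (500 bp), 4 (3000 bp), 8 (whole genes), 1 (q of 0.05) and 0 (−log10 q of 5), and in untreated 10 over whole genes and 0 at a −log10 q of 5. Shedding and mRNA control genes numbered 6 in R848 and 8 in untreated at a q of 0.05, and 0 and 2 at a −log10 q of 5.

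Windows with less than the span were 74.0% (R848) and 79.3% (untreated) at similar gene number, 98.0% and 82.0% with peaks of a q of 0.05 or less, and 98.5% and 97.8% by covered bases. The promoter windows and the gene-number match were added after seeing the data. Pileups of 8 to 23 fragments limit precision.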
